A study of Mus musculus with 4 samples.

Results

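The 10 genes described here encode the TGF-beta ligands (Tgfb1, Tgfb2, Tgfb3), their receptors (Tgfbr1, Tgfbr2, Tgfbr3) and the latent TGF-beta binding proteins (Ltbp1, Ltbp2, Ltbp3, Ltbp4). Chromatin accessibility at these genes was measured by ATAC-seq, which sequences the fragments that a transposase releases where DNA is open. Overlapping windows of 300 bp that lay up to 100 bp apart were merged into 110121 accessible regions, and the window with the highest summed counts stood for each region. A region belonged to the protein-coding gene that contained the midpoint of that window, or else to the nearest within 100000 bp. By this rule 160 of the 110121 regions belonged to the 10 genes: 44 to Tgfbr3, 43 to Ltbp1, 18 to Tgfbr2, 17 to Ltbp2, 14 to Tgfb2, 9 to Ltbp4, 8 to Tgfbr1, 3 to Tgfb3, and 2 each to Tgfb1 and Ltbp3. No region was removed for low counts. Whether a region acts on the gene nearest to it was not measured.

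The cells were fibroblastic reticular cells, the stromal fibroblasts of the lymph node, sorted for high BP3 and for podoplanin, without CD31 or CD45, from female C57BL/6 mice of 12 weeks. In the Notch2_cKO group (2 libraries) the mice carried Ccl19-Cre and floxed Notch2, so the receptor gene is targeted in cells with Ccl19-Cre activity. In the control group (2 libraries) littermates carried floxed Notch2 without the Cre, so both groups share the floxed allele. For each library, 50000 cells were sorted from 6 pooled mice. A difference in accessibility of such a bulk sample can come from the share of cells with an open site or from how open it is in each cell, and these cannot be told apart.

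TGF-beta is secreted as an inactive dimer that stays bound to its own propeptide. A latent TGF-beta binding protein is joined to this complex and tethers it to matrix fibres, from which integrins and proteases release the active ligand. The ligand then binds the type II receptor (Tgfbr2), which activates the type I receptor (Tgfbr1) and through it the Smad transcription factors. Tgfbr3, betaglycan, presents ligand to the other receptors. In fibroblasts the pathway is known for inducing matrix and contractile genes.

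The libraries held 30265230 and 12342835 counts in Notch2_cKO replicates 1 and 2, and 23633406 and 25744540 in control replicates 1 and 2, summed over the best windows. Levels below are normalized CPM (counts scaled to library size, with loess adjustment between libraries) of 300-bp windows, so levels of different genes refer to the same length. Changes are log2 of Notch2_cKO over control from edgeR's quasi-likelihood test, with an approximate standard error (SE) and Benjamini-Hochberg adjusted p over all 110121 regions, called at 0.05. The Notch2 start region, given first as the targeted gene, held 55.2 and 46.2 CPM in Notch2_cKO and 55.3 and 57.5 CPM in control (log2 -0.14, SE 0.10, edgeR adjusted p = 0.341). A region at the start does not check the deletion. Control replicate 2 held 221 counts at the Y-linked gene Ddx3y and every other library 0. The labels give female mice for all pools, so counts are also given without that library. Regions at gene ends were found for 7 of 10 reticular cell markers, among them Pdpn and Bst1 (podoplanin and BP3, the sort markers), none of which passed the test. No region within 1000 bp of a gene end was assigned to Ccl19, Ccl21a or Pdgfra. Of the markers of other cells, 2 of 6 blood endothelial, 2 of 6 lymphatic endothelial, 2 of 7 leukocyte and 5 of 6 mural cell genes had such a region. Blood endothelial marker regions summed to 32.2 and 33.2 CPM in Notch2_cKO against 23.5 and 22.45 CPM in control. Of these, Tek was higher (log2 0.74) and Kdr did not pass (log2 -0.04). Lymphatic endothelial marker regions summed to 23.7 and 24.2 CPM in Notch2_cKO against 23.6 and 21.7 CPM in control. Leukocyte marker regions summed to 19.2 and 17.9 CPM in Notch2_cKO and 17.7 and 17.15 CPM in control. Mural marker regions summed to 72.3 and 69.0 CPM in Notch2_cKO against 87.5 and 89.8 CPM in control, with Myh11 and Notch3 lower. The mural markers Rgs5 (log2 0.02), Des (log2 -0.15) and Cspg4 (log2 -0.49) did not pass. The defining markers Pecam1, Cdh5, Lyve1 and Ptprc were among those to which no gene-end region was assigned. The part of other cell types in the results below was not tested.

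Most of the called regions that were higher in Notch2_cKO lay at Tgfbr3 and Tgfbr2, and most that were lower lay at Ltbp1. These genes also hold the most regions (44, 18 and 43 of the 160). The share called was 29.55% at Tgfbr3, 33.33% at Tgfbr2 and 30.23% at Ltbp1, against 35.71% at Tgfb2. Of 70 regions at the 3 receptors, 15 were higher in Notch2_cKO and 5 lower. Of 71 regions at the 4 latent binding proteins, 5 were higher and 13 lower, of which 3 higher and 2 lower lay outside Ltbp1. Of 19 regions at the ligands, 3 were higher and 3 lower. Over all 160 regions 23 were higher and 21 lower, so 44 (27.5%) were called, against 23.7% of all regions tested (12.5% higher and 11.2% lower). The total for the 10 genes is thus near the background. The median log2 change was -0.07 over the 160 regions and 0.01 over all regions, and whether the 3 groups of genes differ from each other was not tested. Changes of at least 2-fold were called in 11 higher and 5 lower of the 160 regions, against 6099 higher and 4817 lower of all 110121 regions.

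The counts moved with single libraries. Without control replicate 2, 16 regions were higher and 11 lower (15.6% of all regions called), and without control replicate 1, 18 and 10 (16.5%). Without Notch2_cKO replicate 1 they were 23 and 13 (19.7%), and without Notch2_cKO replicate 2, the shallowest library, 25 and 32 (27.5%). By role, leaving out Notch2_cKO replicate 2 gave 14 higher and 10 lower receptor regions, and 8 higher and 18 lower regions at the latent binding proteins. Leaving out Notch2_cKO replicate 1 gave 15 and 2 at the receptors, and 4 and 10 at the latent binding proteins. With control replicate 1 left out, the receptors had 12 and 2 and the latent binding proteins 2 and 8. With control replicate 2 left out, they had 11 and 2, and 3 and 9. DESeq2, which scales each library by 1 factor, called 15 higher and 8 lower (12.4% of the regions to which it gave an adjusted p).

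**Figure D1:**
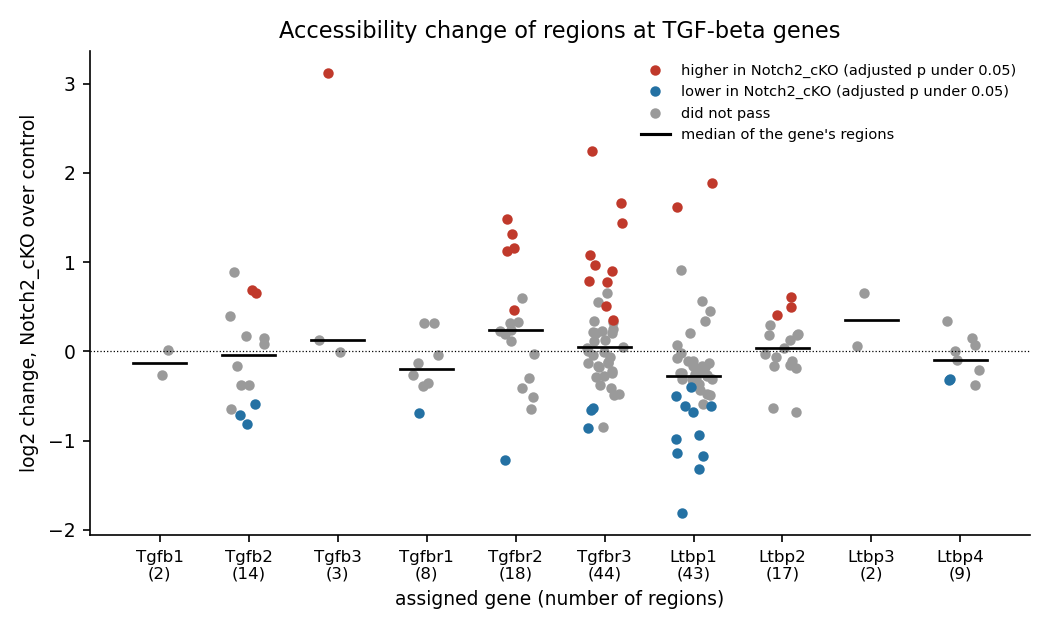
Each point is 1 of the 160 regions, placed by its assigned gene (x axis, with the number of regions) and its log2 change of Notch2_cKO over control (y axis). Red and blue points passed the test at an adjusted p of 0.05, grey points did not, and black lines are the medians per gene: Ltbp1 has the lowest median (-0.27) and Tgfb3 the region with the highest change (3.12).

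An accessible region within 1000 bp of a gene end was found at 7 of the 10 genes, and 1 of the 7 with the highest counts per gene changed. Tgfb2, Ltbp3 and Ltbp4 had none. Of all such regions 10.2% were called, against 2 of the 9 at these genes. The start region of Ltbp1 was lower in Notch2_cKO, while those at Tgfbr1 and Tgfbr2 did not pass. RefSeq promoter sequences (GRCm38.p6, the assembly that mm10 names) were found for 8 of the 10 genes, in 12 windows of 300 bases. For these 3 genes, the bases before the annotated gene are shown 5′ to 3′ because their open start regions carry the comparison. They lie at chr17:75005279-75005479 on the + strand, chr4:47352972-47353221 on the + strand and chr9:116175364-116175613 on the - strand. Capitals mark CAGAC or its complement GTCTG, the letters of a Smad binding element.
Ltbp1: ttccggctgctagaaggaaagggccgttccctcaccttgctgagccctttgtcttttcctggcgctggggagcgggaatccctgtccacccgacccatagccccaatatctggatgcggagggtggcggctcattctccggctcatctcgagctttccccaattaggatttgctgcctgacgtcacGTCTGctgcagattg
Tgfbr1: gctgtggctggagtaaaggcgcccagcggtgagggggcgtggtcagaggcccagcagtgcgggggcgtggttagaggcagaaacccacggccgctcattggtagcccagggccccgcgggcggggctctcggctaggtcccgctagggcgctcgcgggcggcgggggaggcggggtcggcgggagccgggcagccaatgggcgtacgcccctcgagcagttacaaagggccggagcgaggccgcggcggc
Tgfbr2: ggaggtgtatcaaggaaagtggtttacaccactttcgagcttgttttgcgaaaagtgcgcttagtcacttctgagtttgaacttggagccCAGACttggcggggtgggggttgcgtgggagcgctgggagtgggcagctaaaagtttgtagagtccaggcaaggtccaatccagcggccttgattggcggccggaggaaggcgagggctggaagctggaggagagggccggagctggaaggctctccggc

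On either strand, CAGAC was found in 7 of the 12 promoter windows, against 49.6% of 32851 promoters of the same length. The RBPJ letters TGGGAA were found in 1 of 12, that of Ltbp3, against 25.6% of all, and the AP-1 letters TGANTCA in 1 of 12, again Ltbp3, against 7.81% of all. The TEAD letters GGAATG (14.7% of all) and the Smad palindrome GTCTAGAC (0.213% of all) were found in 0 of 12. A match describes the letters of these windows and is not a binding site.

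Tgfbr1, which encodes the type I receptor kinase, had the highest level of these gene-end regions, with 95.3 and 74.5 CPM in Notch2_cKO and 91.2 and 96.0 CPM in control (chromosome 4, 47352851 to 47353450). The groups overlapped and the region did not pass (log2 -0.13, SE 0.10, edgeR adjusted p = 0.377). Tgfbr3 followed with 66.2 and 57.6 CPM in Notch2_cKO and 67.8 and 66.9 CPM in control (chromosome 5, 107289201 to 107289850; log2 -0.12, SE 0.09, edgeR adjusted p = 0.411). Under median centring both were called lower (edgeR adjusted p = 0.0183 for Tgfbr1 and 0.0419 for Tgfbr3), and under TMM also, but not by DESeq2. With single libraries left out, the log2 change of Tgfbr1 ran from -0.33 (without Notch2_cKO replicate 1) to 0.04 (without Notch2_cKO replicate 2). Tgfb1 had 31.9 and 25.6 CPM in Notch2_cKO and 33.3 and 36.5 CPM in control (log2 -0.26, SE 0.12, edgeR adjusted p = 0.125). Its log2 change ran from -0.44 (without Notch2_cKO replicate 1) to -0.11 (without Notch2_cKO replicate 2). Ltbp1 had 21.2 and 22.8 CPM in Notch2_cKO against 31.8 and 30.1 CPM in control (log2 -0.50, SE 0.12, edgeR adjusted p = 0.00386), with no overlap. The other strong gene ends lay at like levels in both genotypes. Tgfb3 had 26.5 and 26.5 CPM in Notch2_cKO and 25.9 and 27.3 CPM in control. Tgfbr2 averaged 27.6 ± 3.9 CPM in Notch2_cKO and 25.7 ± 0.622 CPM in control (SD, n = 2 each), and neither region passed. Ltbp2 had the lowest level, 8.78 ± 1.07 CPM in Notch2_cKO and 7.84 ± 0.233 CPM in control. In Notch2_cKO the libraries of Tgfb1, Tgfb3 and Tgfbr2 overlapped, below Tgfbr1 and Tgfbr3 and above Ltbp1 and Ltbp2. In control the order was Tgfbr1, Tgfbr3, Tgfb1, Ltbp1, Tgfb3, Tgfbr2 and Ltbp2, and of these neighbours Tgfb3 and Tgfbr2 overlapped.

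**Figure D2:**
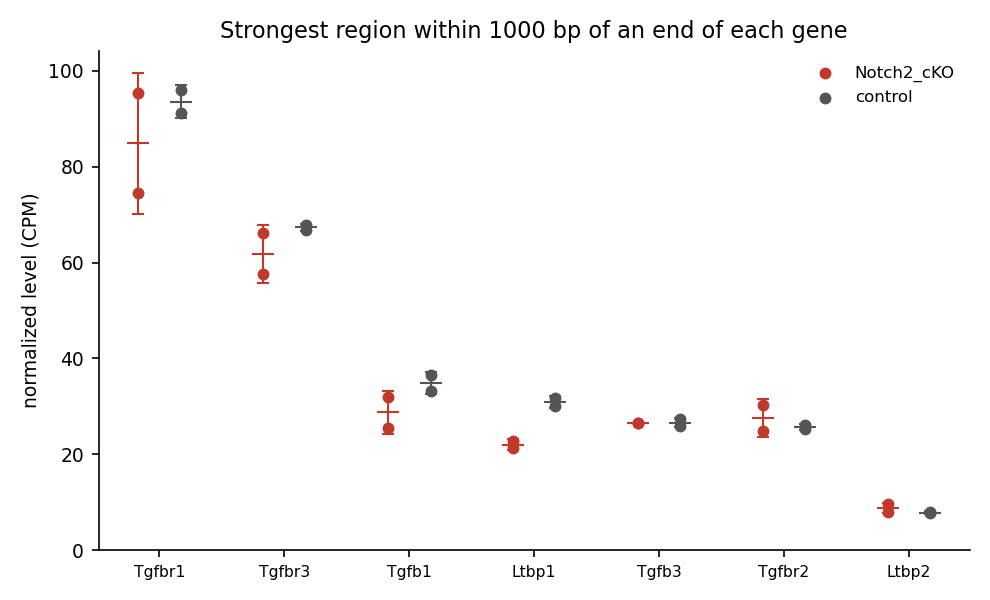
Normalized levels (CPM, y axis) of the region with the highest counts within 1000 bp of an end of each gene (x axis). Points are libraries, with Notch2_cKO left of control, and bars are mean and SD (n = 2): of these 7 regions that at Ltbp1 is the one called, at 21.2 and 22.8 CPM in Notch2_cKO and 31.8 and 30.1 CPM in control.

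Among the ligands, Tgfb3, an isoform studied in tissue repair, had the largest change of all 160 regions. The region lay inside the gene at its end with the lower coordinate (chromosome 12, 86056951 to 86057550), away from the stronger gene-end region described above. It held 136 and 63 counts in Notch2_cKO and 15 and 10 counts in control, or 4.42 and 4.86 CPM against 0.66 and 0.398 CPM. Both control libraries were thus near 0 there, and both Notch2_cKO libraries were higher at a low level. The log2 change was 3.12 (SE 0.28, edgeR adjusted p = 2.61e-07), and without control replicate 2 it was 2.77 (edgeR adjusted p = 4.69e-11). The ratio of raw counts of this region to the other gene end was 0.167 and 0.194 in Notch2_cKO against 0.02475 and 0.0142 in control (exact two-sided permutation p = 0.333, the smallest that 2 against 2 libraries allow). A single scaling factor per library does not alter this ratio, but a trend with level between libraries can. The region was named for its small p, so the ratio is not a separate test. The remaining region of Tgfb3 did not pass.

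Tgfb2, which encodes another of the 3 ligands, had 2 higher and 3 lower regions of 14. The 2 higher ones lay outside the gene beyond its lower-coordinate end, away from its start. One at a distance of 12687 bp had 14.3 and 13.5 CPM in Notch2_cKO against 8.95 and 8.36 CPM in control (log2 0.69, SE 0.15, edgeR adjusted p = 0.00166). The other, 35487 bp away, had 23.9 and 28.1 CPM in Notch2_cKO against 19.0 and 13.9 CPM in control (log2 0.65, SE 0.15, edgeR adjusted p = 0.00291), and was not called without control replicate 2 (edgeR adjusted p = 0.135). The 3 lower regions were weak, at 1.00 to 2.60 CPM on average in Notch2_cKO and 1.72 to 3.87 CPM in control. None of them was called when Notch2_cKO replicate 1 or either control was left out, and 4 regions were lower without Notch2_cKO replicate 2. The region of smallest p among them, inside the gene, had 2.08 and 2.63 CPM in Notch2_cKO against 3.76 and 3.70 CPM in control (log2 -0.71, SE 0.22, edgeR adjusted p = 0.0208). The region 589 bp into the gene from its annotated start averaged 18.7 ± 1.07 CPM in Notch2_cKO and 16.8 ± 1.32 CPM in control (SD, n = 2 each) and did not pass. At Tgfb1, the ligand most abundant in blood and immune cells, neither region was called. Its stronger one, inside the gene, had 50.2 and 47.0 CPM in Notch2_cKO and 46.8 and 49.8 CPM in control (log2 0.01).

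Among the receptors, Tgfbr3 had 10 higher and 3 lower regions of 44, and Tgfbr2 had 5 higher and 1 lower of 18. Tgfbr1 had 1 lower region of 8. The Tgfbr3 region of smallest p lay 5721 bp outside the gene, beyond the end with the open gene-end region (chromosome 5, 107295051 to 107295700). It had 10.8 and 10.9 CPM in Notch2_cKO against 3.60 and 3.27 CPM in control, with no overlap of the groups (log2 1.66, SE 0.17, edgeR adjusted p = 1.13e-06). Inside the gene, the region from 107157451 to 107157750 had 5.48 and 4.94 CPM in Notch2_cKO against 0.664 and 1.51 CPM in control (log2 2.25, SE 0.27, edgeR adjusted p = 5.61e-06). A strong region inside the gene, from 107237851 to 107238550, moved less, with 53.5 and 60.4 CPM in Notch2_cKO against 46.6 and 42.2 CPM in control (log2 0.35, SE 0.10, edgeR adjusted p = 0.0144), and was not called under median centring (edgeR adjusted p = 0.176) or without either control. The other 7 higher regions had log2 changes from 0.51 to 1.43. The lower region of smallest p, 59867 bp outside the gene, had 2.39 and 3.24 CPM in Notch2_cKO against 4.49 and 5.31 CPM in control (log2 -0.86, SE 0.21, edgeR adjusted p = 0.00494), and was not called without control replicate 2 or Notch2_cKO replicate 1. Over the whole gene the median log2 change was 0.05, so the rises were found at single sites among many regions that did not pass. Without control replicate 2, 7 regions were higher and 1 lower. Without Notch2_cKO replicate 1, 1 was lower, against 2 without control replicate 1 and 6 without Notch2_cKO replicate 2.

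At Tgfbr2, which encodes the receptor that binds active ligand, the higher region of smallest p lay 92237 bp upstream of the gene (chromosome 9, 116267301 to 116267950). It had 7.80 and 8.36 CPM in Notch2_cKO against 3.69 and 3.51 CPM in control (log2 1.16, SE 0.17, edgeR adjusted p = 7.21e-05). A region 26313 bp inside the gene had 4.16 and 3.78 CPM in Notch2_cKO against 1.41 and 1.79 CPM in control (log2 1.32, SE 0.23, edgeR adjusted p = 0.000254). Another, 2937 bp upstream of the start, rested on fewer counts, 97 and 28 in Notch2_cKO against 14 and 34 in control (log2 1.49, SE 0.31, edgeR adjusted p = 0.00156). The gene's 18 regions had a median log2 change of 0.23. The 39 regions within 500000 bp around them that were not assigned to Tgfbr2 had a median of 0.31, with 8 higher and 1 lower. The neighbourhood of Tgfbr2 was thus also shifted upward. The 1 lower region, 68587 bp upstream, held 16 and 6 counts in Notch2_cKO and 37 and 21 in control (log2 -1.22, SE 0.39, edgeR adjusted p = 0.0291), and was not called without control replicate 1 or Notch2_cKO replicate 1. The lower region of Tgfbr1 lay 16822 bp upstream, with 2.17 and 2.32 CPM in Notch2_cKO against 3.67 and 3.54 CPM in control (log2 -0.69, SE 0.21, edgeR adjusted p = 0.0223), and was not called without control replicate 1, control replicate 2 or Notch2_cKO replicate 1 (edgeR adjusted p = 0.099, 0.0781 and 0.154).

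**Figure D3:**
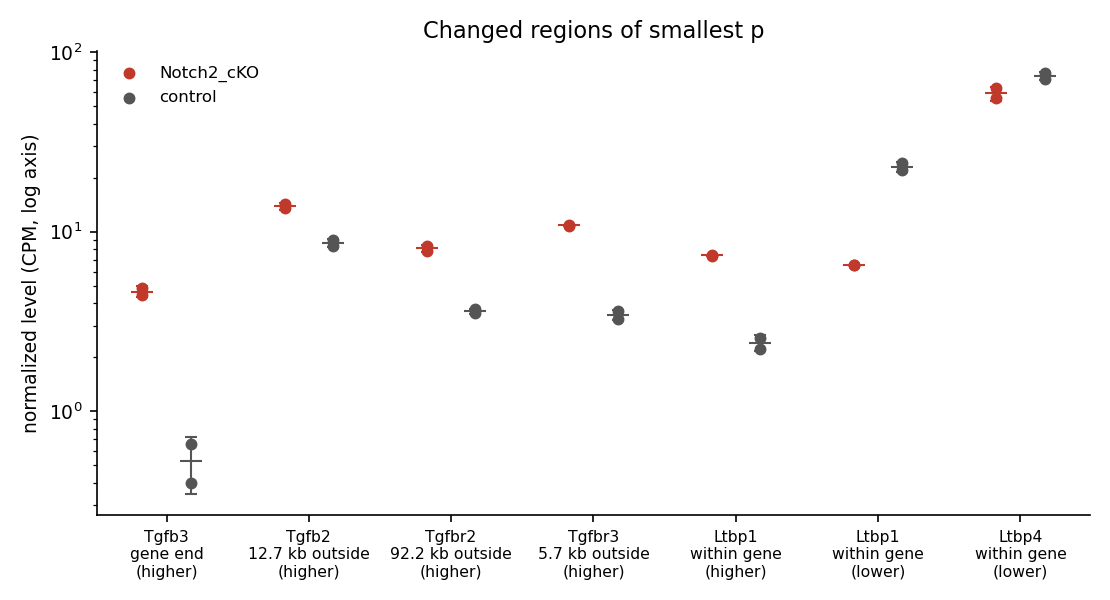
Normalized levels (CPM, log axis) of the called regions of smallest p at 6 of the genes, by gene and place (x axis). Points are libraries, with Notch2_cKO left of control, and bars are mean and SD (n = 2): the Tgfb3 gene end has 4.42 and 4.86 CPM in Notch2_cKO against 0.66 and 0.398 CPM in control, and the lower Ltbp1 region 6.55 and 6.56 against 21.9 and 24.1 CPM.

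Among the latent binding proteins, Ltbp1 carried 11 of the 13 lower regions. Ltbp1, which links latent TGF-beta to fibrillin microfibrils, is known to be made in a long and a short form from separate promoters. Of its 43 regions, 2 were higher and 11 lower. The lower region of smallest p lay inside the gene 22021 bp from the first start (chromosome 17, 75027251 to 75027900). It held 204 and 83 counts in Notch2_cKO and 498 and 612 in control, or 6.55 and 6.56 CPM against 21.9 and 24.1 CPM. Both Notch2_cKO libraries were far below both controls (log2 -1.81, SE 0.15, edgeR adjusted p = 8.28e-08). The next called regions along the gene were also lower, while the regions lying between did not pass (log2 -0.47, -0.59 and -0.43). A region 33621 bp from the same start had 6.92 and 7.13 CPM in Notch2_cKO against 15.1 and 16.4 CPM in control (log2 -1.17, SE 0.15, edgeR adjusted p = 1.23e-05). Another, 53321 bp from it, had 1.97 and 2.70 CPM in Notch2_cKO against 6.00 and 5.15 CPM in control (log2 -1.32, SE 0.21, edgeR adjusted p = 0.000136). The region after that, 69871 bp from the first start, did not pass (log2 0.45).

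The lower regions of Ltbp1 lay mainly in its first part. From the region at the first start to the second start, 173252 bp further on, 9 of 21 regions were lower and 0 higher, with a median log2 change of -0.43. From the second start onward 2 of 20 were lower and 2 higher, with a median of -0.20. This division was chosen after the values were seen. The region at the second start (75178201 to 75178750) is centred 281 bp before it and so is counted among the 21. It had 32.7 and 40.5 CPM in Notch2_cKO and 31.2 and 26.2 CPM in control, so that the groups did not overlap. The region did not pass (log2 0.34, SE 0.13, edgeR adjusted p = 0.0559). With single libraries left out, its log2 change ran from 0.19 (without Notch2_cKO replicate 2) to 0.51 (without Notch2_cKO replicate 1). The ratio of the region at the first start to that at the second was 0.656 and 0.571 in Notch2_cKO against 1.005 and 1.141 in control. Both Notch2_cKO libraries were below both controls (mean log2 difference -0.81, exact two-sided permutation p = 0.333, the smallest possible). The 2 higher regions lay 115119 and 166469 bp beyond the second start. The first had 7.41 and 7.34 CPM in Notch2_cKO against 2.23 and 2.57 CPM in control (log2 1.62, SE 0.19, edgeR adjusted p = 4.61e-06). The second had 4.19 and 5.25 CPM in Notch2_cKO against 1.72 and 0.795 CPM in control (log2 1.89, SE 0.28, edgeR adjusted p = 5.01e-05). The 32 regions within 500000 bp that were not assigned to Ltbp1 had a median log2 change of 0.01, with 7 higher and 5 lower. The median over the 43 regions of Ltbp1 was -0.27. Without control replicate 2, 9 Ltbp1 regions were lower and 2 higher, and 7 were lower without Notch2_cKO replicate 1; the start region was not called without control replicate 1 (adjusted p = 0.0783).

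**Figure D4:**
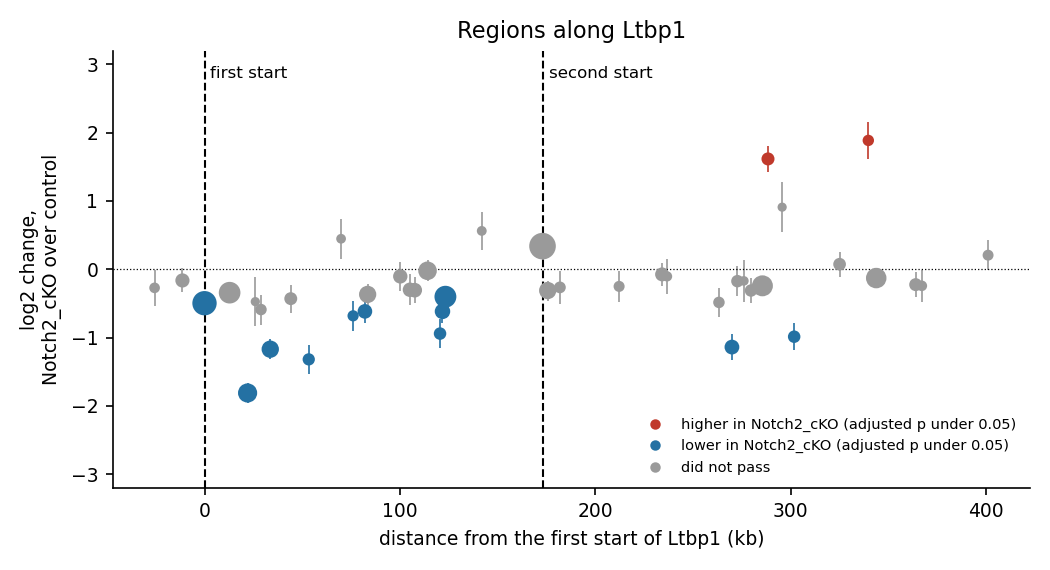
Log2 change of Notch2_cKO over control (y axis, bars are SE) of the 43 regions of Ltbp1 by distance from its first annotated start in kb (x axis). Point area grows with the mean level and dashed lines mark the starts: 9 of the 11 lower regions (blue) lie from the first start to the second, and both higher regions (red) lie beyond the second.

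The other latent binding protein genes moved less. Ltbp2, a microfibril protein that does not bind latent TGF-beta itself, had 3 higher regions of 17 with log2 changes from 0.41 to 0.61. That of smallest p, inside the gene, had 11.02 and 7.86 CPM in Notch2_cKO against 6.30 and 6.43 CPM in control (log2 0.61, SE 0.17, edgeR adjusted p = 0.0148). None of the 3 was called without control replicate 1, and 1 each without control replicate 2 or Notch2_cKO replicate 1. Ltbp4, which is needed for elastic fibre assembly, had 2 lower regions of 9, inside the gene 2548 and 1098 bp downstream of an annotated start. The stronger had 62.9 and 55.3 CPM in Notch2_cKO against 71.1 and 76.6 CPM in control (log2 -0.32, SE 0.09, edgeR adjusted p = 0.0187). The weaker averaged 27.9 ± 0.626 CPM in Notch2_cKO and 34.5 ± 0.597 CPM in control (SD, n = 2 each; log2 -0.31, edgeR adjusted p = 0.0463). Neither passed with the replicate number as a block (adjusted p = 0.0513 for the stronger), nor without either control, and 1 region of Ltbp4 was lower without Notch2_cKO replicate 1. At Ltbp3 neither of the 2 regions passed, and that near the start averaged 11.5 ± 2.1 CPM in Notch2_cKO and 11.3 ± 1.58 CPM in control.

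The wider pathway was read from 3 further gene lists. At 25 genes that release, bind or hold latent TGF-beta, 47 of 282 regions were higher and 33 lower (median log2 0.06), 28.4% in all against 23.7% of all regions. Itgb8, the integrin subunit known for activating latent TGF-beta, had 5 lower and 0 higher of 21 regions. That of smallest p, 7153 bp outside the gene, had 4.66 and 4.27 CPM in Notch2_cKO against 10.5 and 9.07 CPM in control (log2 -1.11, SE 0.17, edgeR adjusted p = 8.3e-05). Itgb6, an epithelial subunit of the same function, had 2 higher and 1 lower of 17 regions. Its region of smallest p, 14592 bp outside the gene, had 6.57 and 7.33 CPM in Notch2_cKO against 1.38 and 1.50 CPM in control (log2 2.25, SE 0.21, edgeR adjusted p = 3.74e-07). Fbn1, the microfibril protein that anchors the latent complex, had 6 higher and 8 lower of 27 regions. The one of smallest p, 6344 bp outside the gene, was higher at 10.4 and 9.37 CPM in Notch2_cKO against 1.69 and 2.25 CPM in control. Fewer regions of this list were called higher without control replicate 2, as was the case over all regions.

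At 20 genes of signal transduction, 27 of 224 regions were higher and 13 lower (median log2 0.03), 17.9% in all against 23.7% of all regions. Pmepa1, an inhibitor of Smad signalling that TGF-beta induces, had 8 higher and 2 lower of 21 regions. That of smallest p, 4969 bp outside the gene, had 9.58 and 10.4 CPM in Notch2_cKO against 2.84 and 2.56 CPM in control (log2 1.88, SE 0.18, edgeR adjusted p = 5.17e-07), without overlap. Smad6, an inhibitory Smad, had 2 higher and 1 lower of 25 regions, and Tgif1, a corepressor of Smads, 2 higher and 1 lower of 7. The Tgif1 region of smallest p, 26168 bp outside the gene, was lower, at 1.33 and 0.926 CPM in Notch2_cKO against 4.09 and 3.51 CPM in control (log2 -1.66, SE 0.25, edgeR adjusted p = 6.6e-05). Lower regions in this list numbered 22 with median centring and 23 with TMM, against 13107 and 13368 over all regions (12327 in the main fit). Fewer regions of this list were called higher without Notch2_cKO replicate 1 or control replicate 2, as was the case over all regions. Lower calls in the list rose without Notch2_cKO replicate 1, while they fell over all regions. Without control replicate 2 they fell in both.

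At 28 genes known to respond to TGF-beta in fibroblasts, 46 of 275 regions were higher and 34 lower (median log2 0.06), 29.1% in all against 23.7% of all regions. Col5a1, a fibrillar collagen gene, had 9 higher and 0 lower of 21 regions, and Comp, a cartilage and tendon matrix gene, 3 higher of 3. Fap, a protease of activated fibroblasts, had 4 lower and 0 higher of 7. Ccn2, a matricellular gene that TGF-beta induces, had 1 lower region of 8, 1317 bp outside the gene. It had 6.67 and 6.48 CPM in Notch2_cKO against 13.3 and 13.7 CPM in control (log2 -1.04, SE 0.15, edgeR adjusted p = 5.29e-05). Bhlhe40, a transcriptional repressor, had 3 higher and 1 lower of 8, led by a higher one 37825 bp outside the gene (log2 1.79, SE 0.21, edgeR adjusted p = 5.66e-06). Tnc, the tenascin C gene, had 8 higher and 4 lower of 26, again led by a higher one (log2 1.41, SE 0.18). The members of this list thus went both ways, as did those of the other lists. Fewer regions of this list were called lower without Notch2_cKO replicate 1 or either control, as was the case over all regions.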

How the data were processed

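ATAC-seq libraries of 2 Notch2_cKO and 2 control pools were compared. The authors deposited whole-number counts for 678058 overlapping windows. The labels call the values loess-normalized in csaw, but the totals differ between libraries and the values show no trace of scaling, so they were treated as counts without normalization. The submitters' processing notes name Bowtie2 2.4.5 and mm10, with Picard 2.27.5, deepTools, SAMtools 1.14, cutadapt and Trim Galore 0.6.7. Neither the window filter nor any shift of reads for the transposase is given in these sources. Which reads were kept as duplicates or multimappers is likewise not given and could change the levels.

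Loess offsets in the manner of csaw (span 0.3) entered edgeR 4.0.16 in R 4.3.3 with genotype as the sole term. SE was obtained by dividing each log2 change by the root of its F value. DESeq2 1.42.0 was an alternative. Figures used matplotlib 3.10.9. The test was run on simulated counts with known changes. These had the same spread setting for all regions and no trend between libraries, so they do not give the error rate in these data. Replicates are separate pools per the labels. Mean chi-square per region was 2.70 between the Notch2_cKO libraries, 1.88 between controls and 10.0 between Notch2_cKO 1 and control 1. No pair was counted as 1 library.

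Named were, per member gene, its strongest region within 1000 bp of a gene end and its called region of smallest p in each direction, and up to 3 regions per further list. Other regions and genes named were chosen after their values were seen. Members and lists were chosen with earlier results of these data known. Alternatives were TMM, median centring, a filter on the lowest 25% of regions, DESeq2, a replicate block, genes within 10000 bp, merging of touching windows only, and each library left out; in these last fits a single library takes its spread from the other genotype. Genes, gene ends and starts came from RefSeq tables of the same assembly. No genome sequence was used.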

Additional observations from a re-analysis of the deposited data

How the results depend on the processing

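For the member regions, TMM gave 22 higher and 22 lower, median centring 22 and 21, the lowest 25% of regions left out 21 and 19, and DESeq2 15 and 8. Over all regions, 26114 were called in the main fit, 27568 with TMM and 27630 with median centring. The filter on the lowest 25% gave 21674 and DESeq2 12853. Leaving out single libraries gave 16 to 25 higher and 10 to 32 lower. A replicate block gave 20 higher and 17 lower, with 22979 called over all regions. Same-numbered libraries deviated in opposite directions (correlation -0.179 over 110121 regions), so their numbers are not taken as pairs. A crossed replicate block, chosen after seeing the data, gave 27 higher and 32 lower. Calls over all regions also rose with it, to 35022. For the other lists, DESeq2 gave 28 higher and 16 lower (activation and binding), 8 and 7 (signal transduction) and 27 and 13 (response genes). In signal transduction, TMM gave 23 lower and median centring 22, against 13368 and 13107 lower over all regions (12327 in the main fit). With genes within 10 kb, which leaves fewer regions in each list, 15 were higher and 4 lower there. In response genes 25 were higher and 19 lower by that rule. Leaving out single libraries gave 27 to 49 higher and 22 to 35 lower (activation and binding), 13 to 27 and 8 to 20 (signal transduction), and 33 to 45 and 14 to 41 (response genes).

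Genes within 10 kb gave 17 higher and 16 lower member regions, and merging only touching windows 23 and 21. The 10 kb rule takes regions further away out of the set, so its counts come from fewer regions. No named member region that was called changed sign under the alternatives run. Of those not called, the gene-end regions of Tgfbr1 (log2 0.04 without Notch2_cKO replicate 2), Tgfbr2 (log2 -0.05 without Notch2_cKO replicate 1) and Tgfb3 (0.02 at most, without control replicate 2) did. DESeq2 lost the call of 5 named regions, and leaving out Notch2_cKO replicate 1, control replicate 1 or control replicate 2 lost 5, 6 and 5. The block lost 1 of them, at Ltbp4. The lead regions of Tgfb2 (higher), Tgfb3, Tgfbr3 (higher), Tgfbr2 (higher) and Ltbp1 (both directions) lost their call in none of the alternatives run. The filter on the lowest 25% removed 1 named region. Notch2_cKO replicate 2 is the shallowest library; whether depth limits the calls in weak regions was not tested. Counting intervals do not cover PCR duplicates.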
